A study of Homo sapiens with 4 samples.

Results

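The human mitochondrial genome is a small circular DNA that carries 37 genes, and the genes described here are the 37 rows of the deposited table that lie on the mitochondrial chromosome, of 61806 genes in all. They comprised 13 mRNAs, 2 rRNAs and 22 tRNAs. The 13 mRNAs encode subunits of the respiratory chain and of the ATP synthase, namely 7 subunits of complex I, 1 of complex III, 3 of complex IV and 2 of complex V. RNA was measured in 4 libraries of poly(A)-selected RNA from 2 human bone cancer cell lines kept in suspension, so that the cells were detached from their support. JJ012, a chondrosarcoma line, and 143B, an osteosarcoma line, each had 1 control library from untreated cells and 1 library from cells given 1 mM melatonin, a pineal hormone, for 72 h. The libraries held between 15889564 and 19218343 counts. There was 1 library per condition, so no difference could be set against the spread between cultures.

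Both strands of the mitochondrial genome are copied by the polymerase POLRMT into long precursors. In most places a tRNA stands between neighbouring mRNAs, and enzymes that cut the tRNAs out of the precursor also release the mRNAs and rRNAs. Most of the mRNAs then receive a poly(A) tail, which in several of them also completes the stop codon. The mRNAs of one precursor share their transcription start, and their levels can come to differ through later steps such as processing and decay. The respiratory complexes I, III, IV and V are built from mitochondrial and nuclear subunits, whereas complex II is encoded by nuclear genes alone.

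The last 30 bases of each annotated mRNA are shown because poly(A) selection acts on the 3′ end of an RNA. The annotated end need not be the end that carries the tail, and those of MT-ATP8 and MT-ND4L lie inside the gene that follows. The sequences were taken from the transcripts of GENCODE 29 (GRCh38), in which all 37 genes had the start, end and strand of the deposited table. The letters of the stop codon, whole or in part, are in capitals, and each sequence is given 5′ to 3′ on the strand of its gene, in the order of the genome.
MT-ND1: tacaatctccagcattccccctcaaaccTA
MT-ND2: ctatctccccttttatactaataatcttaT
MT-CO1: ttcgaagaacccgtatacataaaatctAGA
MT-CO2: tttgaaatagggcccgtatttaccctaTAG
MT-ATP8: tcgcttcattcattgcccccacaatccTAG
MT-ATP6: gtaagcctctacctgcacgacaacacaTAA
MT-CO3: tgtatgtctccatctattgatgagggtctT
MT-ND3: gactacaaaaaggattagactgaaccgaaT
MT-ND4L: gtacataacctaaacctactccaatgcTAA
MT-ND4: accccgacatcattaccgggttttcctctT
MT-ND5: ctcatcctaaccctactcctaatcacaTAA
MT-ND6: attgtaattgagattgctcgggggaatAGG
MT-CYB: taattgaaaacaaaatactcaaatgggccT
In 7 mRNAs the annotated sequence ended in a whole stop codon, while 6 ended in part of one, 5 of them in T alone and MT-ND1 in TA. The 12 mRNAs on the plus strand held between 6.28% and 16.2% G. MT-ND6, the single mRNA on the minus strand, held 35.6% G and 7.05% C, against at least 29.5% C in each of the others.

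In 3 places neighbouring mRNAs overlap on the same strand, so that reads from these bases belong to both genes. MT-ATP8 and MT-ATP6 share 46 bases, MT-ND4L and MT-ND4 share 7, and MT-ATP6 and MT-CO3 share 1. For the longer overlaps, the shared bases are in capitals in these 80-base windows on the plus strand, MT:8513-8592 and MT:10707-10786 (GRCh38).
MT-ATP8/MT-ATP6: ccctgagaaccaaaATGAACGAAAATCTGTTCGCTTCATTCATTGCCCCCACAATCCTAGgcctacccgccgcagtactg
MT-ND4L/MT-ND4: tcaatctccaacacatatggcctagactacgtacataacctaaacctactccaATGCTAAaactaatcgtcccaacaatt
How the authors' counting treated bases of 2 genes is not given in the sources used here, which leaves the counts of the 5 genes uncertain. The uncertainty is not limited to the shared bases, since any read pair that reaches them could belong to either gene. It can weigh most on the short genes MT-ATP8 and MT-ND4L.

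Expression is given as FPKM, the counts of a gene normalized to its exonic length and to the total of the library. The log2 fold change was the log2 of (FPKM + 1) in one library over (FPKM + 1) in the other, and a gene was counted as changed at an absolute value of at least 0.58, the fold threshold of the study. A gene entered a comparison when either library reached 1 FPKM. For single genes, the ratio of CPM (counts scaled to the library total) was taken with its exact (Clopper-Pearson) 95% interval. These intervals hold counting error alone and take PCR copies as separate molecules. Of the 37 genes, 17 entered each comparison, namely the 13 mRNAs, both rRNAs and the tRNAs MT-TP and MT-TC. In these bulk libraries, fewer mitochondrial genomes per cell and less RNA per genome cannot be told apart.

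After melatonin, most mitochondrial mRNAs were lower in JJ012 and higher in 143B. In JJ012, 10 of the 17 genes fell and 0 rose, all 10 of them mRNAs. Of the 15794 tested genes of the table, 18.6% fell and 19.6% rose, 38.2% in all. In 143B, 13 of the 17 rose and 0 fell, comprising 12 mRNAs and MT-TP. Of the 14135 tested genes, 6.09% rose and 6.65% fell, 12.7% in all. The median log2 fold change of the 13 mRNAs was -1.15 in JJ012 and 0.77 in 143B, beside medians over all tested genes of 0.0084 and 0.026. A set of 9 mRNAs fell in JJ012 and rose in 143B, comprising MT-ND2, MT-ND3, MT-ND6, MT-CYB, MT-CO1, MT-CO2, MT-CO3, MT-ATP6 and MT-ATP8. When FPKM were rescaled to the same sum in each library (TPM, each gene as its share of the summed FPKM), 7 did so, since MT-CO1 and MT-ATP8 then had -0.54 and -0.57 in JJ012. MT-ND1 passed the threshold in JJ012 and not in 143B, and MT-ND4L, MT-ND4, MT-ND5 and MT-TP in 143B and not in JJ012. Whether the lines differ in these changes was not tested. The share of all tested genes that fell in JJ012 and rose in 143B is not given here. How common such opposite changes are over the whole table therefore cannot be judged from these counts.

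**Figure D1:**
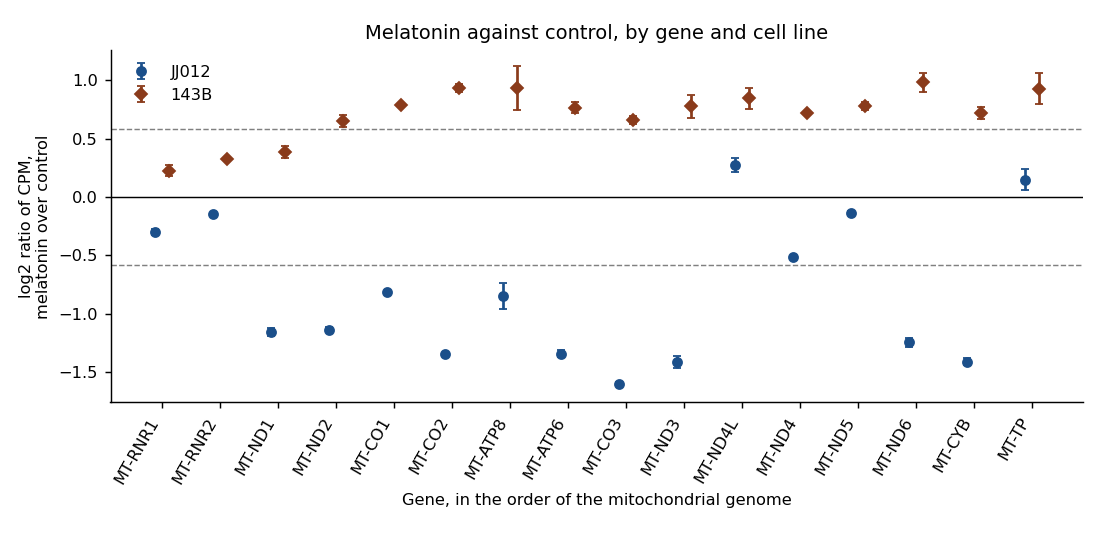
Log2 ratio of CPM, melatonin over control, for each mRNA, rRNA and MT-TP in JJ012 (circles) and 143B (diamonds), in the order of the genome. Bars are exact 95% intervals for counting error and dashed lines mark 0.58 in either direction. All 16 values of 143B lie above 0, and in JJ012 MT-ND4L and MT-TP alone do.

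Across the 4 libraries, 14 of the 16 genes with more than a few counts had the same order of levels. The JJ012 control was highest, followed by JJ012 with melatonin, 143B with melatonin and the 143B control. MT-ND4L and MT-TP differed from this order in that JJ012 with melatonin was above the JJ012 control.

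**Figure D2:**
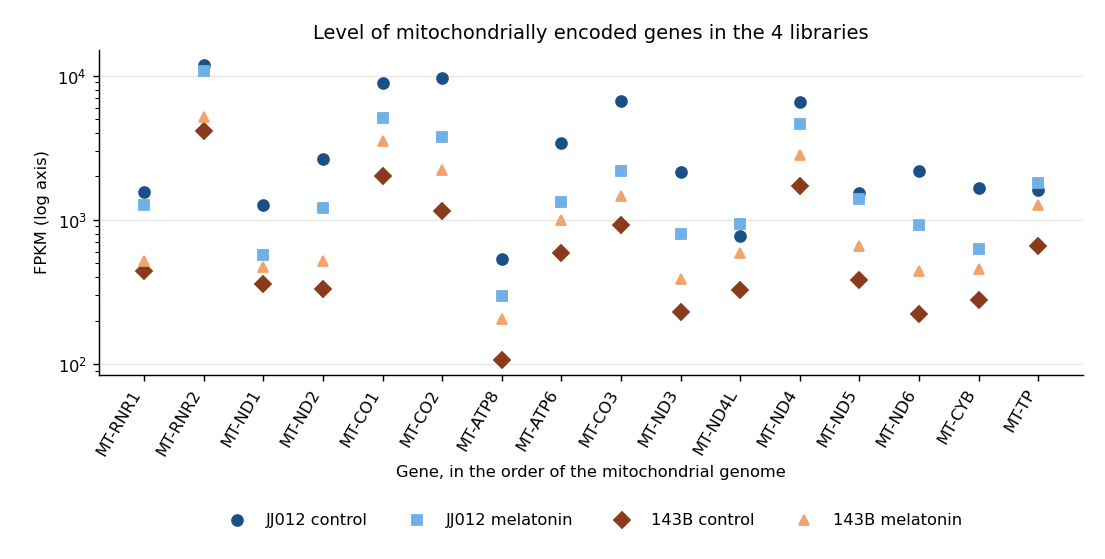
FPKM on a log axis of the 13 mRNAs, the 2 rRNAs and MT-TP in each of the 4 libraries, in the order of the genome. The JJ012 control is the highest library for 14 of the 16 genes and the 143B control the lowest for all 16.

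Complex I, the NADH dehydrogenase, takes electrons from NADH and pumps protons, and its mitochondrial subunits all belong to the part of the complex embedded in the membrane. MT-ND1 (MT:3307-4262, plus strand) had 1277 FPKM in the JJ012 control, 573 in JJ012 with melatonin, 360.0 in the 143B control and 469 in 143B with melatonin. MT-ND2 (MT:4470-5511, plus strand) had 2642, 1203, 330.4 and 518 FPKM in the same order of libraries. Both fell in JJ012, by 1.15 and 1.13 on the log2 scale, whereas in 143B MT-ND2 rose by 0.65 and MT-ND1 had 0.38, the lowest log2 fold change of any mRNA in that line.

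MT-ND3 (MT:10059-10404, plus strand) had 2139.9 and 804 FPKM in JJ012 without and with melatonin, and 228 and 391 in 143B. Its level in the JJ012 control was 9.37-fold that in the 143B control by CPM (log2 ratio 3.23, 95% interval 3.14 to 3.31). MT-ND6 (MT:14149-14673, minus strand) had 2198 and 928 FPKM in JJ012 and 224 and 442 in 143B. It had the largest rise of the mRNAs in 143B, 1.97-fold by CPM (log2 ratio 0.98, 95% interval 0.90 to 1.06), and it fell by 1.24 in JJ012. MT-ND6 is transcribed from the other strand than the other 12 mRNAs, and the strand setting of the counting is not given, so its reads cannot be told apart from those of the precursor that runs opposite to it. How much of the MT-ND6 mRNA carried a poly(A) tail was not measured, so its level in these poly(A)-selected libraries may not be comparable with the other mRNAs.

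The remaining complex I genes are neighbours between bases 10470 and 14148 of the genome, with tRNA genes between MT-ND4 and MT-ND5, and they are the 3 mRNAs that did not fall past the threshold in JJ012. MT-ND4L (MT:10470-10766, plus strand) had 778 FPKM in the JJ012 control and 938 with melatonin, and 328 and 589 in 143B. MT-ND4 (MT:10760-12137, plus strand) had 6591 and 4614 FPKM in JJ012, and 1710.0 and 2815 in 143B. MT-ND5 (MT:12337-14148, plus strand) had 1528 and 1391 FPKM in JJ012, and 384 and 659 in 143B. Their log2 fold changes in JJ012 were 0.27, -0.51 and -0.13, and with TPM they were 0.55, -0.24 and 0.14. In 143B all 3 rose, by 0.84, 0.72 and 0.78. No tRNA gene lies between MT-ND4L and MT-ND4, which overlap by 7 bases, and reads that reach the overlap leave both counts uncertain. Whether counting accounts for the difference between the values of MT-ND4L and MT-ND4 was not tested.

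MT-CYB (MT:14747-15887, plus strand) encodes cytochrome b, the single mitochondrial subunit of complex III, which passes electrons from ubiquinol to cytochrome c. It had 1661 and 625 FPKM in JJ012 without and with melatonin, and 276 and 455 in 143B. It was 2.66-fold lower by CPM with melatonin in JJ012 (log2 ratio -1.41, 95% interval -1.44 to -1.38) and 1.65-fold higher in 143B (0.72, 0.67 to 0.77).

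The 3 complex IV genes encode the catalytic core of cytochrome c oxidase, which hands electrons to oxygen. MT-CO1 (MT:5904-7445, plus strand) had 8926 and 5072 FPKM in JJ012 without and with melatonin, and 2024 and 3498 in 143B. MT-CO2 (MT:7586-8269, plus strand) had 9622 and 3780.2 FPKM in JJ012, and 1161 and 2216 in 143B. MT-CO3 (MT:9207-9990, plus strand) had 6617 and 2178 FPKM in JJ012, and 927 and 1467 in 143B. MT-CO3 had the lowest log2 fold change of all mRNAs in JJ012, 3.04-fold lower by CPM (log2 ratio -1.60, 95% interval -1.62 to -1.58). MT-CO1 fell least of the complex IV genes, by 0.82 against 1.35 for MT-CO2. In 143B the rises were 0.79 for MT-CO1, 0.93 for MT-CO2 and 0.66 for MT-CO3.

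MT-ATP8 and MT-ATP6 encode membrane subunits of complex V, the ATP synthase, and lie on one mRNA that carries both reading frames. MT-ATP8 (MT:8366-8572, plus strand) had 538 and 299 FPKM in JJ012, and 107 and 205 in 143B, and was the lowest mRNA in every library. MT-ATP6 (MT:8527-9207, plus strand) had 3388 and 1338 FPKM in JJ012, and 586 and 997 in 143B. In JJ012 MT-ATP6 fell by 1.34 and MT-ATP8 by 0.84, although they share an mRNA, and the reads of their overlap leave both counts uncertain. With 353 counts in the 143B control, MT-ATP8 had the widest interval of the mRNAs in that line (log2 ratio 0.93, 0.75 to 1.12), and it included the value of MT-ATP6, 0.77.

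The rRNAs changed less than most mRNAs in either line. MT-RNR1 (MT:648-1601, plus strand), the RNA of the small ribosomal subunit, had 1570.1 and 1275 FPKM in JJ012 without and with melatonin, and 445 and 521 in 143B. MT-RNR2 (MT:1671-3229, plus strand), the RNA of the large subunit, had 11819 and 10674 FPKM in JJ012, and 4146 and 5191 in 143B, and was the gene with the highest FPKM of the whole table in all 4 libraries. Neither reached the threshold after melatonin, with log2 fold changes of -0.30 and -0.15 in JJ012, which were -0.02 and 0.13 with TPM, and 0.23 and 0.32 in 143B. The FPKM of MT-RNR2 was 7.53 times that of MT-RNR1 in the JJ012 control and between 8.37 and 9.96 times in the other libraries. Mitochondrial rRNAs carry short adenylate tails at their 3′ end and were counted here in libraries selected for poly(A).

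Of the 22 tRNA genes, which are between 59 and 75 bases long, 18 were listed at 0 counts in all 4 libraries. Another 3, MT-TF, MT-TC and MT-TY, had at most 2 counts in a library, which is within the floor of 3 counts (0.156 to 0.189 CPM). Their levels could therefore not be compared in these libraries. A total of 20 tRNA genes lie with another mitochondrial gene within 150 bases on both sides, the exceptions being MT-TF and MT-TP. MT-TP, the proline tRNA (MT:15956-16023, minus strand), was the single tRNA above the floor and is shown, with its anticodon in capitals, as the single tRNA that could be compared.
MT-TP: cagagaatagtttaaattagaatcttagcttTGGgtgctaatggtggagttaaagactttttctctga
It had 2117 and 1970 counts in JJ012 without and with melatonin, and 717 and 1474 in 143B, which corresponded to 1619.9, 1795, 664 and 1263 FPKM. Its log2 ratio of CPM was 0.15 in JJ012 (95% interval 0.06 to 0.24) and 0.93 in 143B (0.80 to 1.06), so that it rose in 143B and did not fall in JJ012. On the strand opposite to MT-TP the other precursor runs, and without a known strand setting the source of these counts cannot be told apart.

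Summed by complex, the CPM in JJ012 with melatonin over the control had a log2 ratio of -0.61 for complex I, -1.41 for complex III, -1.08 for complex IV and -1.31 for complex V. For the rRNAs it was -0.16. At the scaling of TPM these values were -0.34, -1.13, -0.80, -1.04 and 0.12, so that complex I no longer passed 0.58 and the rRNAs changed sign. In 143B the values were closer to each other, with 0.71 for complex I, 0.72 for complex III, 0.80 for complex IV, 0.77 for complex V and 0.32 for the rRNAs. Within complex I, the sum was weighted by MT-ND4, which held 174542 of the 344950 counts of that complex in the JJ012 control.

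Mitochondrial genes took 6.78% of all counts in the JJ012 control, 4.35% in JJ012 with melatonin, 1.63% in the 143B control and 2.46% in 143B with melatonin. Within these counts, the rRNAs took 29.4% in the JJ012 control and 41.0% with melatonin, and 42.1% and 34.9% in 143B. The counts of rRNAs over those of mRNAs were 0.417 and 0.700 in JJ012 and 0.732 and 0.540 in 143B, so this ratio was higher with melatonin in JJ012 and lower in 143B. Complex IV moved the other way, from 37.6% to 27.8% in JJ012 and from 28.4% to 32.8% in 143B. Complex I stayed between 24.7% and 27.0% of the mitochondrial counts in all 4 libraries. Of the mRNA counts alone, complex I took 37.6% in the JJ012 control and 45.9% with melatonin, and 42.9% and 41.5% in 143B. Complex IV took 53.4% and 47.5% of them in JJ012, and 49.3% and 50.7% in 143B. Complexes III and V took 2.79% and 3.57% of the mitochondrial counts in the JJ012 control, and between 1.64% and 2.11% and between 2.24% and 2.93% elsewhere.

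**Figure D3:**
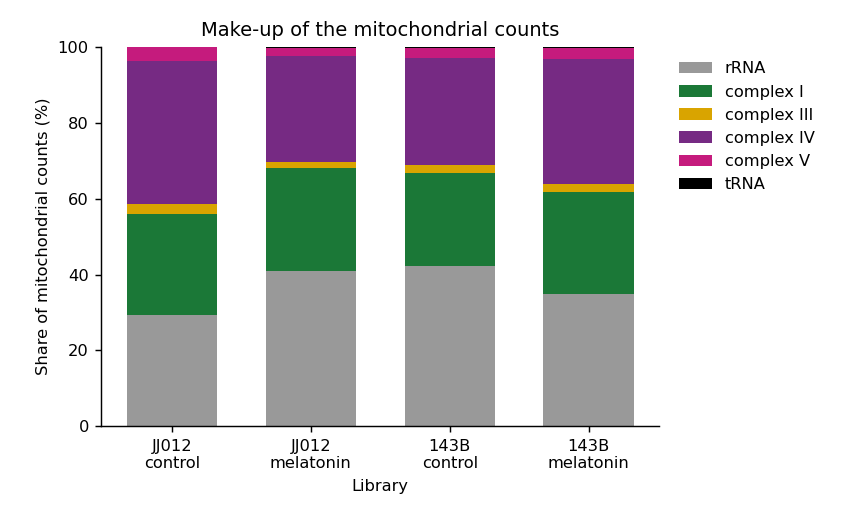
Share of the mitochondrial counts, in percent, taken by the rRNAs, the mRNAs of each complex and the tRNAs in each library. The rRNAs take 29.4% in the JJ012 control and between 34.9% and 42.1% in the other libraries, and the tRNAs are too few to be seen.

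Among the mRNAs alone, the make-up of the JJ012 control stood apart from the other libraries. MT-ND4L took 0.483% of the mRNA counts there and between 1.04% and 1.10% in the other 3 libraries. MT-CO3 took 10.9% there and between 6.69% and 7.72% elsewhere, and MT-CO2 took 13.8% against between 8.43% and 10.1%. MT-CO1 was the largest contributor in each library, with between 28.8% and 33.9%. With melatonin in JJ012, the log2 ratio of the share was 1.18 for MT-ND4L (95% interval 1.12 to 1.24), 0.77 for MT-ND5 (0.75 to 0.79) and 0.39 for MT-ND4 (0.38 to 0.40), the 3 neighbours named above. The lowest values were those of MT-CO3, -0.70 (-0.72 to -0.68), and of MT-ND3 and MT-CYB, -0.51 each. In 143B the shares moved less, between -0.37 for MT-ND1 and 0.22 for MT-ND6.

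**Figure D4:**
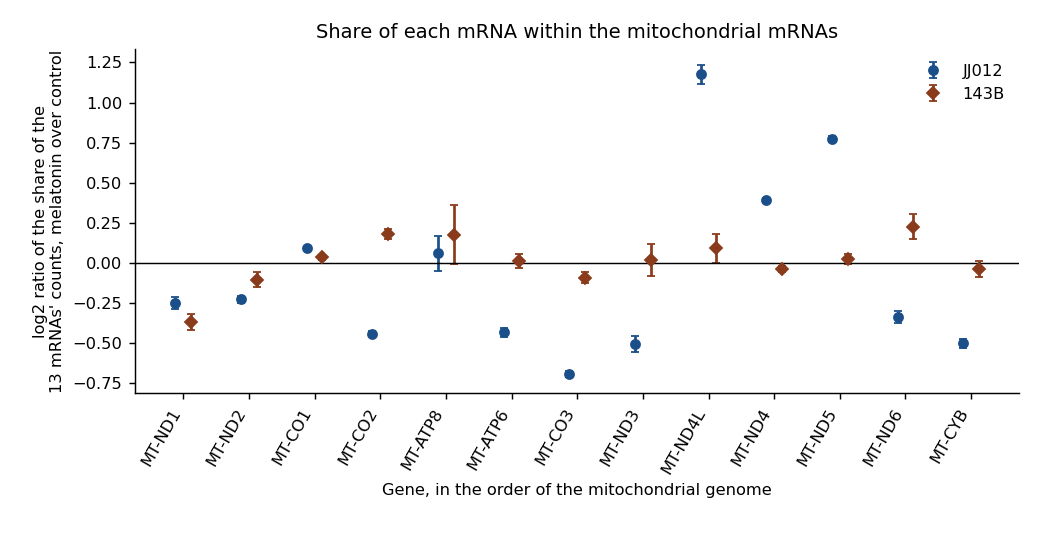
Log2 ratio of the share that each mRNA takes of the counts of the 13 mRNAs, melatonin over control, with exact 95% intervals for counting error, in JJ012 (circles) and 143B (diamonds). In JJ012 the neighbours MT-ND4L, MT-ND4 and MT-ND5 lie at 1.18, 0.39 and 0.77, and in 143B the values lie between -0.37 and 0.22.

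The log2 fold changes of the mRNAs spanned 1.87 in JJ012, from MT-CO3 to MT-ND4L, and 0.60 in 143B, from MT-ND1 to MT-ND6. Of the 7 mRNAs with a whole stop codon 5 fell in JJ012, and of the 6 with part of one 5 fell. Across the 13 mRNAs, the Spearman correlation of the log2 fold change with exonic length was 0.21 in JJ012 and -0.42 in 143B, a description over genes that share libraries. The order of the mRNAs by FPKM was most alike between the 143B libraries (Spearman correlation 0.97 over the 13 mRNAs, which keep the same lengths in each library). Between JJ012 with melatonin and 143B with melatonin the correlation was 0.94, and between the controls 0.75. The FPKM of MT-ND4 was 8.48 times that of MT-ND4L in the JJ012 control and between 4.78 and 5.21 times in the other libraries, and that of MT-ATP6 was 6.30 times that of MT-ATP8 in the JJ012 control and between 4.47 and 5.46 times elsewhere.

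The cell lines were then compared under the same treatment. These comparisons use the libraries of the melatonin comparisons again and are not independent of them. In the controls, 16 of the 17 tested genes were higher in JJ012 past the threshold. Of the 16929 tested genes of the table, 41.3% were higher and 27.4% lower, 68.7% in all. The median log2 fold change of the mRNAs was 2.53 (0.286 over all tested genes). The largest values were 3.29 for MT-ND6, 3.22 for MT-ND3, 3.05 for MT-CO2 and 3.00 for MT-ND2. The smallest among the mRNAs was 1.24 for MT-ND4L, and MT-RNR1 and MT-RNR2 had 1.82 and 1.51. By complex, the summed CPM of the JJ012 control was 4.45-fold that of the 143B control for complex I, 6.01-fold for complex III, 5.50-fold for complex IV and 5.74-fold for complex V, and 2.89-fold for the rRNAs.

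With melatonin the lines were closer. Of the 17 genes, 9 were higher in JJ012 past the threshold and 0 lower, beside 38.8% higher and 23.2% lower, 62% in all, of the 16239 tested genes of the table. These were 6 of the 7 complex I genes, MT-CO2 and both rRNAs. The median of the mRNAs was 0.67 (0.284 over all tested genes), and 0.38 with the fold changes centred on the median gene, when 6 genes passed. MT-ND1 had the smallest log2 fold change of the mRNAs, 0.29, and MT-ND2 the largest, 1.21. The rRNAs, at 1.29 for MT-RNR1 and 1.04 for MT-RNR2, were above most mRNAs here, whereas in the controls they were below most of them.

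The nuclear genome holds fragments of mitochondrial DNA, and 402 genes of the table are named as such copies. In these, 3 had at least 1000 counts in a library, all on chromosome 1, and each of the others had at most 33. MTATP6P1 (1:633696-634376, plus strand) has the length of MT-ATP6 and differs from it by 10 substitutions (98.5% identity). The longest stretch without a difference is 141 bases. A window of 80 bases is shown in which the gene and the copy differ at 4 positions, in capitals, since a read that crosses them can be assigned to one or the other.
MT-ATP6, MT:8645-8724: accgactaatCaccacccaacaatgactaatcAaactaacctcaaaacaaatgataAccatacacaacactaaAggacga
MTATP6P1, 1:633814-633893: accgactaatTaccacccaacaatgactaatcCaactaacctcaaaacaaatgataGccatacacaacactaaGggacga
Counted from 1 at the first base of the gene, with the base of MT-ATP6 first, these are C129T, A151C, A175G and A192G.

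MTATP6P1 had between 10.1% and 11.3% of the counts of MT-ATP6 in the 4 libraries. Its log2 ratio of CPM was -1.29 in JJ012 (95% interval -1.38 to -1.21) and 0.83 in 143B (0.69 to 0.96), beside -1.34 and 0.77 for MT-ATP6. MTCO1P12 (98.6% identity) had between 0.635% and 0.985% of the counts of MT-CO1, and MTND2P28 (98.2% identity) between 2.99% and 4.15% of those of MT-ND2. Their log2 ratios were -0.62 and -0.66 in JJ012, where MT-CO1 and MT-ND2 had -0.82 and -1.13. Reads could be split between a gene and its copy in the counting, and these shares do not bound the uncertainty of the 3 genes. MT-CO1 and MTCO1P12 share 3 stretches of at least 150 identical bases, the longest of 245. MT-ND2 and MTND2P28 share 2 such stretches, the longest of 266, and MT-ATP6 and MTATP6P1 share 0. A read of 150 bases inside such a stretch does not by itself tell the gene from its copy. The genes and their copies had the same direction in both lines.

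Nuclear subunits of the same complexes had medians nearer to 0 than the mitochondrial ones. In JJ012, 11 of 37 nuclear complex I genes, 2 of 9 of complex III, 3 of 11 of complex IV and 5 of 18 of complex V fell and 0 rose, with medians of -0.45, -0.35, -0.50 and -0.43, while 18.6% of all tested genes fell and 19.6% rose. With TPM, 52.8% of all tested genes in JJ012 passed the threshold in either direction, and their median was 0.21. The counts of nuclear subunits that fell were then 6, 1, 0 and 3, and 1 gene of complex I rose. The medians of the complexes were then -0.23, -0.11, -0.23 and -0.18. COX4I1 (-0.69) in complex IV and ATP5F1E (-0.85), ATP5MK (-0.64) and ATP5MF (-0.59) in complex V were among those that fell. In 143B, 6.09% of all tested genes rose and 6.65% fell. The medians of the complexes there, in the same order, were 0.19, 0.21, 0.03 and 0.13, of which that of complex IV became -0.02 with TPM. In this line 2 complex I genes rose and no other nuclear subunit of these lists passed the threshold. The 4 genes of complex II, succinate dehydrogenase, did not pass it in either line, with values from -0.45 for SDHC to 0.25 for SDHD in JJ012, where SDHA and SDHB had -0.15 and 0.10, and from -0.04 for SDHA to 0.30 for SDHB in 143B, where SDHC and SDHD had 0.06 and 0.26.

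**Figure D5:**
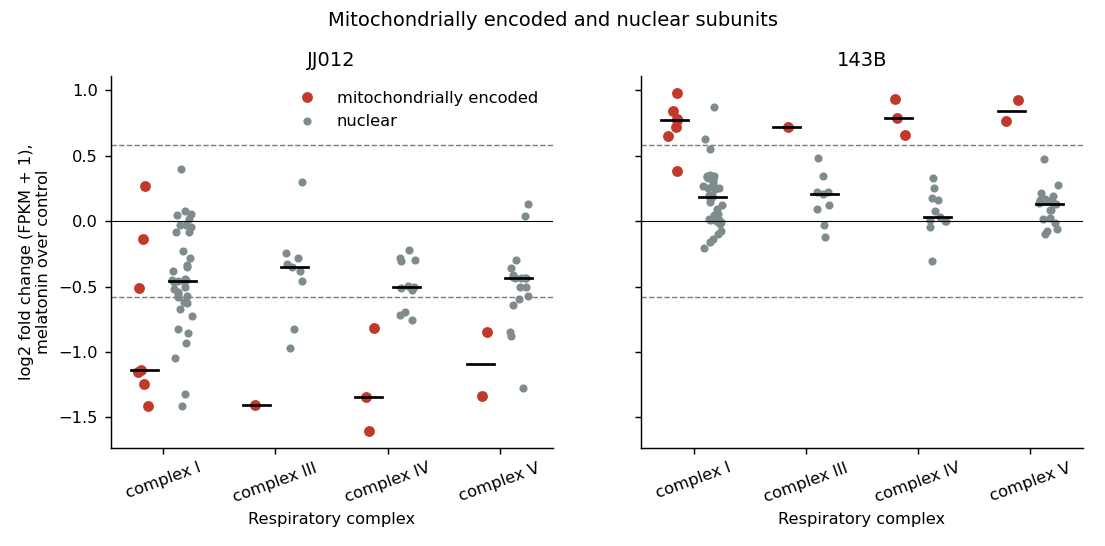
Log2 fold change on the FPKM + 1 scale, melatonin over control, of the mitochondrially encoded (red, left of each pair) and nuclear (grey) subunits of each respiratory complex, with JJ012 and 143B in separate panels. Each point is a gene, short black lines are medians and dashed lines mark 0.58. The medians of the mitochondrial subunits lie beyond those of the nuclear ones in each complex, below them in JJ012 and above them in 143B.

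Among the nuclear subunits with at least 5 FPKM, the lowest log2 fold changes in JJ012 were those of NDUFB7 (-1.41) and NDUFC2 (-1.32) in complex I, UQCR11 (-0.97) and UQCRQ (-0.82) in complex III, COX6B1 (-0.76) and NDUFA4 (-0.72) in complex IV, and ATP5IF1 (-1.28) and ATP5ME (-0.88) in complex V. The highest were NDUFS1 (0.05) and NDUFV2 (-0.03), UQCRC2 (0.30) and UQCRFS1 (-0.24), COX5A (-0.22) and COX6A1 (-0.28), and ATP5F1B (0.13) and ATP5F1C (0.04). In 143B the highest were NDUFA2 (0.87) and NDUFA6 (0.63), UQCRQ (0.49) and UQCR10 (0.35), COX5B (0.33) and COX6A1 (0.25), and ATP5MF (0.47) and ATP5PD (0.22). The lowest in 143B were NDUFB8 (-0.20) and NDUFB4 (-0.16), UQCRH (-0.12) and UQCRC2 (-0.03), COX4I1 (-0.31) and COX5A (-0.04), and ATP5IF1 (-0.10) and ATP5PO (-0.08).

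Among all tested genes, 19.6% rose and 18.6% fell in JJ012, and 6.09% rose and 6.65% fell in 143B. With TPM, 52.8% of them passed the threshold in JJ012 in either direction, with a median of 0.21. Of 8 nuclear genes listed under mitochondrial transcription 2 rose in JJ012 and 1, MTRES1 (0.65), in 143B, and 0 fell. The medians of the list were 0.11 and 0.39. Over the scalings tried, between 1 and 3 rose in each line, and the median in JJ012 was between 0.07 and 0.38. TOP1MT, a topoisomerase, rose by 1.03 and POLRMT by 0.59 in JJ012, the latter just past the threshold and not past it with DESeq2 size factors, a total without mitochondrial genes or centring, and MTRES1 had -0.09 and TFB1M -0.06. POLRMT had 0.45 in 143B, followed by TFB2M with 0.40, and TOP1MT had 0.19 there. TFAM, which packs and bends mitochondrial DNA, had 0.36 in JJ012 and -0.0016 in 143B. Of 13 genes of replication and the nucleoid 3 rose and 1 fell in JJ012, with a median of 0.29 (6 and 1 with TPM, with a median of 0.58), and 0 passed in 143B, with a median of 0.00183 that was below 0 with TPM, DESeq2 size factors and centring. In JJ012 the helicase TWNK (0.80), ATAD3A (0.75) and POLG2 (0.63) rose, and the kinase DGUOK (-0.93) and SSBP1 (-0.50) lowest, while in 143B, among genes with at least 5 FPKM, ATAD3A (0.45) and POLG2 (0.20) were highest and MGME1 (-0.52) and LONP1 (-0.32) lowest.

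Genes that process, modify and degrade mitochondrial RNA moved in both directions. Beside the counts below, 19.6% of all tested genes rose and 18.6% fell in JJ012, and 6.09% rose and 6.65% fell in 143B. With TPM, 52.8% of all tested genes in JJ012 passed the threshold in either direction. Of 12 processing genes tested in JJ012 1 rose and 2 fell, with FASTK (-0.83) and HSD17B10 (-0.62), a subunit of the enzyme that cuts tRNAs at their 5′ end, lowest. PTCD2, under 5 FPKM, was the one that rose (0.58), at the threshold, and among genes with at least 5 FPKM FASTKD1 (0.57) and TBRG4 (0.45) were highest. With DESeq2 size factors, a total without mitochondrial genes or centring 0 of this list rose in JJ012, and 3 with TPM. Of 11 in 143B 1 rose (3 with CPM or TPM), ELAC2 (0.63), which cuts tRNAs at their 3′ end, and among genes with at least 5 FPKM FASTK (0.41) came next, while TBRG4 (-0.02) and GRSF1 (0.09) were lowest. Of 7 genes of RNA stability and decay 2 rose in JJ012, PDE12 (0.84), which removes poly(A) tails, and LRPPRC (0.68), which stabilises the mRNAs with SLIRP (0.11), and REXO2 was lowest (-0.43). With TPM 5 of the 7 rose, and the median was 0.83 against 0.51, beside a TPM median of 0.21 over all tested genes. In 143B the values of that list lay between -0.10 for PDE12 and 0.22 for LRPPRC, with SUPV3L1 at -0.0032 and REXO2 at 0.15. Of the genes of tRNA and rRNA modification 2 of 16 rose in JJ012, NSUN4 (0.70) and MTERF3 (0.59), with CDK5RAP1 (-0.22) and TRIT1 (-0.15) lowest among those with at least 5 FPKM, and 1 of 15 rose in 143B, MRM1 (1.04), which was under 5 FPKM. In JJ012, 6 of them rose with TPM and 1 with DESeq2 size factors or a total without mitochondrial genes. In 143B MTERF3 (0.57) and CDK5RAP1 (0.51) were highest among those with at least 5 FPKM, and TRMU (-0.14) and TRIT1 (-0.09) lowest.

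Of 8 regulators of mitochondrial biogenesis, transcription factors and coactivators, 4 rose in JJ012 (between 3 and 5 over the scalings tried, beside 19.6% of all tested genes), including PPARGC1A (1.57) and PPARGC1B (0.63), which were under 5 FPKM, with a median of 0.49, and 0 of 7 passed the threshold in 143B, with a median of -0.04. PPRC1 (1.39) and ESRRA (0.61) were highest in JJ012 and GABPA (0.24) and YY1 (0.37) lowest among those with at least 5 FPKM, and the values in 143B were 0.12, 0.03, -0.02 and -0.40. Of 77 mitochondrial ribosomal proteins 3 rose and 9 fell in JJ012, beside 19.6% and 18.6% of all tested genes. The median of the list, -0.11, became 0.14 with TPM, when 11 rose and 7 fell. With TPM, 52.8% of all tested genes in JJ012 passed the threshold in either direction, and their median was 0.21. In 143B 2 rose and 1 fell, with a median of 0.21, beside 6.09% and 6.65% of all tested genes. Between 1 (DESeq2 size factors and centring) and 8 (CPM) of the list rose there over the scalings tried. MRPS6 was the single gene of these nuclear lists that fell in both lines, by 1.00 and 0.83. MRPL28 (-1.47) and MRPL23 (-1.22) were lowest in JJ012, and MRPS30 (0.76), MRPL15 (0.75) and MRPL19 (0.60) were those that rose in JJ012, and MRPS26 (0.86) and MRPL55 (0.58) highest in 143B, where MRPL23 had -0.41.

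The labelled tissues of origin were checked against marker lists. The cartilage genes COL2A1 and ACAN were at or below 0.04 and 0.11 FPKM in all libraries, SOX9 had between 6.16 and 15.48 FPKM, COL11A1 had 22.92 and 3.24 FPKM in JJ012 and 0 in 143B, and the summed level of 10 chondrocyte markers was 39.75 and 9.98 FPKM in JJ012 and 16.92 and 13.41 in 143B. The osteoblast genes SP7 and IBSP were at or below 0.12 and 0.13 FPKM and RUNX2 between 2.59 and 4.28, and the sum of 9 osteoblast markers was 96.68 and 70.56 FPKM in JJ012, mostly of SPP1, and 10.25 and 10.51 in 143B. Both lists thus held members at or near 0 in both lines, such as COL2A1, ACAN, SP7 and IBSP. They also held members above 1 FPKM in all libraries, such as SOX9 and RUNX2. Leukocyte markers were summed at 13.17 and 5.45 FPKM in JJ012 and 0.83 and 1.20 in 143B, with PTPRC at or below 0.14, and CD3E at 9.73 and 3.28 in JJ012 and 0 in 143B. In JJ012 the summed level of each list was lower with melatonin, as were the FPKM of the mitochondrial mRNAs other than MT-ND4L. Sums of 4 epithelial markers were 19.39 and 13.53 FPKM in JJ012 and 46.86 and 32.38 in 143B, and those of 2 endothelial markers lay between 0.79 and 2.40. Their part in the results was not tested.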

How the data were processed

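RNA of 4 cultures was measured as poly(A)-selected libraries, sequenced in pairs of 150 bases. The table deposited by the authors holds raw counts as whole numbers. It also holds FPKM deposited by the authors, which recomputation from the counts, the deposited exonic lengths and the column totals matched within 0.005. The submitters' processing notes name cutadapt 1.9.1, HISAT2 2.2.1, HTSeq 0.6.1, DESeq2 and the build hg38, without their roles. The strand setting and the treatment of reads that map to several genes are not given in the sources used here. Columns were matched to samples by cell line, and the suffix T was read as melatonin-treated. Annotation columns (descriptions, pathway names and ontology terms) were not used.

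Library totals were between 15889564 and 19218343 counts, and a floor of 3 counts corresponded to between 0.156 and 0.189 CPM. Fold changes used a pseudocount of 1 FPKM, which understates the change of low genes, a filter of 1 FPKM in either library and a threshold of 0.58, computed over the whole table. With 1 library per condition, no comparison of 2 libraries could be tested. A model of cell line and treatment over the 4 libraries, such as edgeR's quasi-likelihood fit, would leave 1 residual degree of freedom for an effect common to both lines and was not fitted. The exact intervals cover neither differences between cultures nor PCR copies.

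Named nuclear genes are those past the threshold in the same direction in both lines and, per list and line, the 2 highest and 2 lowest with at least 5 FPKM. A tRNA was named at 30 counts and a nuclear copy at 1000, and MT-TF, MT-TC, MT-TY, COX4I1, ATP5F1E, ATP5MK, PTCD2, MRM1, PPARGC1A, PPARGC1B and MRPL19 were named after their values were seen. The genes, lists and rules were chosen with earlier results of these data known. Alternatives were a pseudocount of 0.1, no filter, a filter of 5 FPKM, CPM, TPM, TMM (edgeR 4.0.16), DESeq2 1.42.0 size factors, a library total without mitochondrial genes, centring on the median gene and a threshold of 1. Removal of the trend with exonic length (running median over 501 genes) was added after seeing the data. Sequences and gene ends came from GENCODE 29.

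The procedure was tested on simulated counts with 200 changed genes. Their changes were set well past the threshold, in genes above a count limit and with counting noise alone, so high recovery was built in. Smaller changes were not simulated. The procedure recovered 191 of the 194 that passed the filter for JJ012 (98.5%) and 188 of 190 for 143B (98.9%). In the same order, it called 2.92% of 14866 and 3.35% of 13563 unchanged genes. The spread between cultures was not known, because each condition had 1 library. These percentages therefore describe the simulated counts alone and are not error rates for comparisons of single cultures. The scripts ran in R 4.3.3 and in Python 3.11.15, with pandas 2.3.3, numpy 2.4.6, matplotlib 3.10.9 and scipy 1.17.1.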

Additional observations from a re-analysis of the deposited data

Results flagged for a closer look

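For 9 mRNAs the single library of one line moved past the threshold in the opposite direction from that of the other after melatonin. The log2 fold change in JJ012 less that in 143B was -1.78 for MT-ND2, -2.18 for MT-ND3, -2.22 for MT-ND6, -2.13 for MT-CYB, -1.60 for MT-CO1, -2.28 for MT-CO2, -2.26 for MT-CO3, -2.10 for MT-ATP6 and -1.77 for MT-ATP8. With 1 library per condition, the difference between the lines was not tested, and the share of all tested genes with such opposite changes is not given. With TPM, MT-CO1 and MT-ATP8 did not pass the threshold in JJ012, and the other 7 did.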

How the results depend on the processing

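No paired analysis was possible because, within each comparison, the groups hold 1 library each, which also leaves no replicate to leave out. A fit over all 4 libraries with the cell line as a block was not made, and it would bear on an effect common to both lines alone. No direction of the 8 counts and medians reversed. In JJ012, the median log2 fold change of the mitochondrial mRNAs, -1.15 as reported, was -0.88 with TPM, -1.08 with TMM, -1.19 with a library total without mitochondrial genes and -1.04 without the trend over exonic length. The number of changed genes lay between 8 and 11 (10 as reported). In 143B, the number was between 0 and 15 (13 as reported), with 0 at a threshold of 1, and the median lay between 0.72 and 0.79. Between the controls, the median of 2.53 was 2.15 with TPM, 2.18 with TMM, 2.24 with DESeq2 size factors, 2.61 without mitochondrial genes in the total, 2.24 when centred and 1.99 without the length trend, and 16 to 18 genes passed. Between the melatonin libraries, the median of 0.67 was 0.38 with TMM, 0.39 with DESeq2 size factors, 0.38 when centred and 0.28 without the length trend. There 6 genes passed with TMM, DESeq2 size factors, centring, a threshold of 1 or the trend removed, and 9 to 10 in the other settings (9 as reported). The median of all tested genes was 0.21 in JJ012 with TPM, and between the controls it was 0.29 as reported and -0.06 with TMM. Over all tested genes, the share called was 38.2% in JJ012 and 52.8% with TPM, and 12.7% in 143B and 28.6% with TPM. Counting error was small for most of these genes, and no value covers the variation between cultures.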
